A study of Mus musculus with 20 samples.

Results

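The small leucine-rich proteoglycans (SLRPs) are secreted proteins of the bone matrix, and 10 genes that encode them, Bgn, Dcn, Aspn, Fmod, Lum, Prelp, Kera, Omd, Ogn and Epyc, were examined among the 54446 genes measured in mouse tibiae. The members were chosen by family, and the family was chosen because Fmod and Lum were noted for their fall under dexamethasone (DEX), a synthetic glucocorticoid. The DEX differences of Fmod and Lum are therefore given as a description, without a test. All 10 genes were found in the count table, and 8 of them had at least 10 counts in every library. Kera and Epyc were the exceptions.

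RNA-seq libraries were made from frozen, pulverised tibiae of male C57BL/6J mice aged 3 months, 5 libraries in each of 4 groups. Vehicle_Ctrl and Vehicle_Load came from mice injected with distilled water, and DEX_Ctrl and DEX_Load from mice injected with DEX at 1 mg/kg, with 5 injections in either case. The left tibia of each mouse was compressed along its axis at -13 N for 40 cycles in a session (the Load groups), and the unloaded right tibia gave the Ctrl groups. The labels place the sessions on days 1 and 3, whereas the study's text gives 2 to 3 sessions a week for loading in general and 3 for these samples, with the last on day 5, and bones were frozen 4 hours after it. The DEX_Ctrl 4 library was left out of the comparisons, because the study removed a library named DEX-4 and plotted 4 unloaded and 5 loaded DEX values, so DEX_Ctrl held 4 libraries. The unnumbered library of each vehicle group had a column number that no sample label has. The labels name the tissue only as tibia, and the study's text describes it as cortical bone with its periosteum, so each library is bulk tissue. Neither the labels nor the methods say that a replicate number marks a mouse, so p-values measure the spread between these libraries. The main fits of loading and of the interaction treat the left and right tibia of a mouse as independent libraries and leave out their pairing.

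SLRPs share a core of leucine-rich repeats that binds collagen fibrils and sets how thick they grow and how they are spaced. The first class (Bgn, Dcn and Aspn) includes proteins that carry chondroitin or dermatan sulfate chains and bind growth factors of the TGF-β family. The second class (Fmod, Lum, Prelp, Kera and Omd) includes keratan sulfate carriers, several of them with sulfated tyrosines, and the third class holds Ogn and Epyc. In bone, biglycan and decorin are the most studied members, and osteoadherin, the product of Omd, is made by cells of the osteoblast lineage and binds hydroxyapatite.

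Most of the genes lie in clusters. On GRCm38 (GENCODE release M21), Prelp (ENSMUSG00000041577.5, chromosome 1, 133910304 to 133921414, minus strand) and Fmod (ENSMUSG00000041559.7, 134037254 to 134048277, plus strand) lie 115839 bases apart. Dcn, Lum, Kera and Epyc follow each other on the plus strand of chromosome 10 within 202846 bases, Lum (ENSMUSG00000036446.5) at 97565128 to 97572703 and Kera (ENSMUSG00000019932.8) at 97606879 to 97613692. Aspn (ENSMUSG00000021388.14, 49544443 to 49567565), Omd (ENSMUSG00000048368.9, 49582462 to 49592822) and Ogn lie within 80059 bases of the plus strand of chromosome 13, inside Cenpp, which is transcribed from the other strand. Bgn (ENSMUSG00000031375.17) lies on chromosome X at 73483602 to 73495933. Prelp and Epyc each overlap a noncoding gene on the other strand (Gm15851 and Gm10754). Because the strand setting of the counting is not given in the sources used here, reads of such overlapping genes may have been counted for either.

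Promoter sequence is shown for genes whose levels differed between the groups. In RefSeq (GRCm38.p6), 8 of the 10 members matched an entry, and Lum and Dcn did not. The 250 bases before the start of the gene most in view, Fmod, and of members from the other chromosomes, Bgn, Aspn and Omd, are printed 5′ to 3′ on the strand of the gene. Capitals mark matches to any of 5 motifs, searched on both strands: AGAACA (a half-site of the glucocorticoid receptor), TGANTCA (AP-1), TGTGGT (RUNX factors), TATAAA (the box bound by TBP) and CANNTG (E-box), where N is any base.
Fmod (chr1:134037004-134037253, plus strand): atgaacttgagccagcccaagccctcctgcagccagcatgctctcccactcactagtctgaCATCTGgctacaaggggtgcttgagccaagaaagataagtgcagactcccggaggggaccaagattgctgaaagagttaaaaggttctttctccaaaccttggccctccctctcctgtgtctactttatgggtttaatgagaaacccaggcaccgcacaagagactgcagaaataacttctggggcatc
Bgn (chrX:73483351-73483600, plus strand): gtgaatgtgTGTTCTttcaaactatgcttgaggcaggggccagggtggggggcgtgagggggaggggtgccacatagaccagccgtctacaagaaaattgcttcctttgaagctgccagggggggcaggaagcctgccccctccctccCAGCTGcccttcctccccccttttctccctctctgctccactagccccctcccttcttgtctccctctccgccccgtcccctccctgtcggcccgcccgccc
Aspn (chr13:49544193-49544442, plus strand): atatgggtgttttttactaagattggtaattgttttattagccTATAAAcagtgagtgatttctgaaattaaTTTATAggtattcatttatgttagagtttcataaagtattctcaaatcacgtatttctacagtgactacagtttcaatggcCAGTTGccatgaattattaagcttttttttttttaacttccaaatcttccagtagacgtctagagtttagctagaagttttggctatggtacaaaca
Omd (chr13:49582212-49582461, plus strand): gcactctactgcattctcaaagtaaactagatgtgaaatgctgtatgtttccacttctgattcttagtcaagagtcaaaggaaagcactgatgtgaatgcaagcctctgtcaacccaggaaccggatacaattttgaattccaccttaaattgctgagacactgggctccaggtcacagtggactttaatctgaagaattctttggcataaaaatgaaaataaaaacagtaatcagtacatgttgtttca
The Fmod window held an E-box and no other match, and the Omd window held none of the 5 motifs. The Aspn window held TATAAA 207 bases before the start, its reverse complement 178 bases before the start, and an E-box. The Bgn window held the half-site on the opposite strand 241 bases before the start, together with an E-box. Windows are set by the RefSeq start, so that of Kera lies in an exon of the GENCODE annotation and the second of the Epyc windows lies inside the gene. Of the 9 windows of the 8 members, 1 held the half-site, 0 held the AP-1 motif, 1 held the RUNX motif, 2 held TATAAA and 5 held an E-box. Among all 32851 promoter windows of this length, 16.1% held the half-site, 6.75% the AP-1 motif, 14% the RUNX motif, 12.4% TATAAA and 66.2% an E-box. A match is a description of the letters and not evidence that a factor binds there.

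Library totals ran from 4641437 to 13032018 expected counts, with the lowest in DEX_Load 4. That library stood apart, because reads in 1965 olfactory and vomeronasal receptor genes, which bone is not known to use and which serve here as a measure of background reads, reached 6494 CPM (counts scaled to a common library size) in it. The summed CPM of these receptor genes ran from 392 to 1364 in Vehicle_Ctrl, 261 to 933 in Vehicle_Load, 801 to 2919 in DEX_Ctrl and 1098 to 6494 in DEX_Load. The loaded groups did not overlap in this measure, so background reads and DEX cannot be told apart there. No defining marker of osteoblasts, osteocytes, chondrocytes, tendon cells, skeletal muscle, neutrophils or erythroid cells was at 0 in all libraries of a group, so transcripts of marrow, cartilage and muscle were present beside those of bone.

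SLRP transcripts were abundant and were lower in both DEX groups. The 10 genes together had 3621 ± 787 CPM (SD, n = 5) in Vehicle_Ctrl, 3264 ± 451 CPM (SD, n = 5) in Vehicle_Load, 1586 ± 460 CPM (SD, n = 4) in DEX_Ctrl and 1410 ± 576 CPM (SD, n = 5) in DEX_Load. The lowest vehicle library summed to 2815 CPM and the highest DEX library to 2266 CPM. The sum includes Fmod and Lum and is a description. Library sizes were normalized by TMM. In bulk tissue, fewer cells of a type and less RNA per cell cannot be told apart in any of these values.

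Per kilobase of the longest coding transcript, the order of the members in Vehicle_Ctrl was Bgn (738 ± 307 CPM per kb, SD, n = 5), Dcn (386 ± 53.3), Lum (164 ± 21.9), Fmod (110 ± 9.08) and Aspn (66.0 ± 19.5). Prelp (33.9 ± 3.09), Omd (28.8 ± 5.79) and Ogn (25.9 ± 4.39) followed, and of these neighbours Prelp and Omd, and Omd and Ogn, did not differ beyond their spread. Kera (2.08 ± 1.00) and Epyc (0.265 ± 0.202) were the lowest. The order depends on the length: Bgn has 2419 bases by this transcript and 6099 by the union of its exons, and Dcn 1758 and 5838. With the union, Bgn ranked 1 in all groups. Dcn then ranked 3 in Vehicle_Ctrl, below Lum, 4 in Vehicle_Load, 2 in DEX_Ctrl and 3 in DEX_Load. The shares that follow use the longest coding transcript and were not taken with the union. Biglycan made up 46.2% ± 9.02 of the pool per kb in Vehicle_Ctrl, 40.9% ± 3.41 in Vehicle_Load, 46.5% ± 5.85 in DEX_Ctrl and 47.2% ± 9.27 in DEX_Load, so that its share stayed within the spread of the groups. The share of Lum was 10.8% ± 1.85 in Vehicle_Ctrl and 13% ± 1.67 in Vehicle_Load against 7.08% ± 0.937 in DEX_Ctrl and 7.53% ± 1.38 in DEX_Load. The share of Prelp was 2.27% ± 0.524 and 2.62% ± 0.401 in the vehicle groups against 4.72% ± 0.889 and 4.10% ± 0.714 in the DEX groups. The pool holds Fmod and Lum, which were chosen for their fall, and the level of Prelp per kb was no higher under DEX (30.7 and 24.0 CPM per kb against 33.9 and 36.4), so this share says nothing of Prelp alone.

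**Figure D1:**
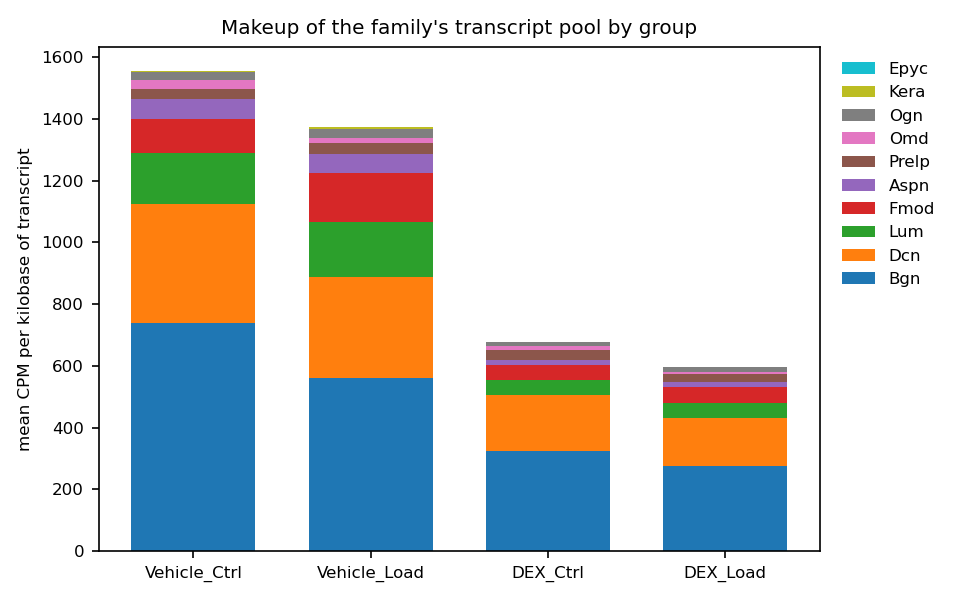
Stacked bars give the mean CPM per kilobase of the longest coding transcript of each of the 10 genes in the 4 groups (n = 5, 5, 4 and 5 libraries). By this length biglycan and decorin form most of every bar, and both DEX bars are lower than both vehicle bars.

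Fmod, which encodes fibromodulin, a keratan sulfate proteoglycan of tendon and bone that shares a collagen binding site with lumican, was lower in all DEX libraries than in all vehicle libraries. Its levels were 342, 325, 392, 331 and 323 CPM in Vehicle_Ctrl and 168, 129, 135 and 143 CPM in DEX_Ctrl. In loaded tibiae they were 698, 366, 483, 413 and 516 CPM in Vehicle_Load and 274, 200, 196, 89.8 and 77.0 CPM in DEX_Load. The coefficient of variation was 8.26% in Vehicle_Ctrl, 25.8% in Vehicle_Load, 11.8% in DEX_Ctrl and 49.5% in DEX_Load. The fitted DEX difference of Fmod was -1.24 on the log2 scale (SE 0.131) in unloaded tibiae, a level 2.36-fold lower. In loaded tibiae it was -1.53 (SE 0.320), or 2.88-fold lower, and -1.38 without DEX_Load 4.

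Lum encodes lumican, a regulator of fibril thickness in bone, tendon and cornea, and its DEX difference was the larger of the pair chosen for their fall. Lum had 317, 440, 422, 447 and 383 CPM in Vehicle_Ctrl and 171, 120, 82.9 and 95.9 CPM in DEX_Ctrl. It had 495, 366, 428, 466 and 415 CPM in Vehicle_Load and 216, 122, 103, 68.2 and 57.4 CPM in DEX_Load. No DEX library reached the lowest vehicle library. The fitted difference of Lum was -1.77 on the log2 scale (SE 0.208) in unloaded and -1.90 (SE 0.302) in loaded tibiae, that is 3.41-fold and 3.74-fold lower, and -1.78 in loaded tibiae without DEX_Load 4. These values chose the family and carry no test.

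**Figure D2:**
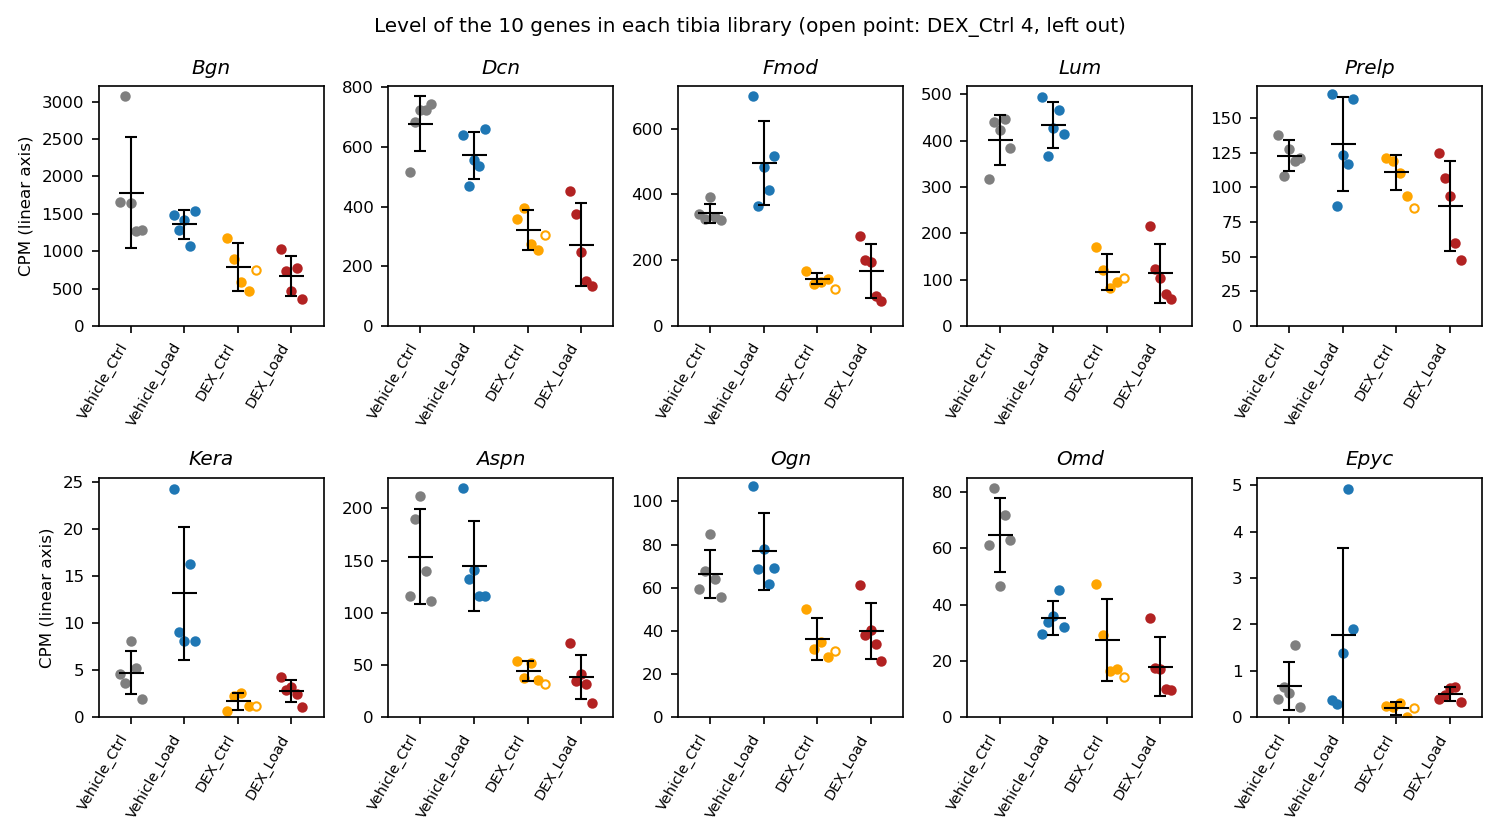
Each panel gives the CPM of 1 gene on a linear axis from 0, with 1 point per library, the mean as a dash and the SD as whiskers (n = 5, 5, 4 and 5; whiskers are cut at 0). An open point marks DEX_Ctrl 4, which was left out of the mean and SD. The DEX points of Fmod, Lum and Aspn lie below all vehicle points, whereas those of Prelp overlap them.

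Of the other 8 members, 5 fell under DEX in unloaded tibiae: Aspn, Dcn, Bgn, Ogn and Omd. Epyc did not pass the filter on low counts, and Kera and Prelp did not pass the test, so 7 were tested. Of all 19738 genes tested, 6.84% were called and 3.99% were called lower. The median difference was -1.20 for the 7 members and 0.0334 for all genes tested.

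Aspn, which encodes asporin, a collagen-binding SLRP that lacks the sulfated chain of its class, had the largest tested fall. It had 116, 190, 212, 140 and 111 CPM in Vehicle_Ctrl and 53.6, 37.5, 51.8 and 35.6 CPM in DEX_Ctrl. The groups did not overlap, and the log2 difference was -1.78 (SE 0.224, edgeR adjusted p = 0.00386), a 3.43-fold lower level. Decorin, the product of Dcn, binds collagen and TGF-β and carries 1 sulfated chain. Dcn had 516, 685, 725, 723 and 744 CPM in Vehicle_Ctrl and 360, 394, 275 and 256 CPM in DEX_Ctrl, a difference of -1.07 (SE 0.177, edgeR adjusted p = 0.00938). All DEX values of Dcn lay below all vehicle values.

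Bgn, the most abundant member, ran from 1275 to 3070 CPM in Vehicle_Ctrl and from 468 to 1181 CPM in DEX_Ctrl without overlap. Its log2 difference was -1.20 (SE 0.329, edgeR adjusted p = 0.0495), just under the threshold of 0.05. This call was the least stable of the 5: it was kept in 7 of 18 alternative fits, and over all 18 the difference ran from -1.54 to -0.88 and the adjusted p from 0.00271 to 0.172. Ogn, which encodes osteoglycin, ran from 55.8 to 84.8 CPM in Vehicle_Ctrl and from 28 to 50.3 CPM in DEX_Ctrl, again without overlap, with a difference of -0.87 (SE 0.174, edgeR adjusted p = 0.0169). Omd had 61.1, 81.3, 46.4, 71.7 and 62.8 CPM in Vehicle_Ctrl and 47.4, 29.1, 16.3 and 17.2 CPM in DEX_Ctrl. The groups of Omd overlapped only through DEX_Ctrl 1 and Vehicle_Ctrl 4, and the difference was -1.24 (SE 0.284, edgeR adjusted p = 0.0261).

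Prelp encodes a matrix protein that anchors basement membranes to connective tissue, and it had 108 to 138 CPM in Vehicle_Ctrl and 93.5 to 121 CPM in DEX_Ctrl. Its log2 difference was -0.13 (95% interval -0.38 to 0.12, edgeR adjusted p = 0.503), an interval that does not reach a 1.5-fold fall. Kera, which encodes keratocan, a corneal keratan sulfate proteoglycan also found in tendon, had 18 to 78 counts in Vehicle_Ctrl and 6 to 21 counts in DEX_Ctrl libraries. Its difference was -1.46 (SE 0.447, edgeR adjusted p = 0.0712), with a 95% interval of -2.43 to -0.49. In 17 alternative fits its adjusted p ran from 0.0165 to 0.144, and 4 of them called it lower.

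The calls in unloaded tibiae depended on single libraries. With any 1 library removed the count ran from 1 to 6. It was 3 without DEX_Ctrl 2, DEX_Ctrl 5 or Vehicle_Ctrl 2, 2 without Vehicle_Ctrl 5, and 1 (Aspn) without DEX_Ctrl 3. The calls over all genes moved as well, from 1351 to 828, 1079 and 1026 in the fits with 3 members called, to 530 without Vehicle_Ctrl 5 and to 129 without DEX_Ctrl 3. With the summed receptor reads as a covariate the same 5 genes were called, among 2740 in all.

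In loaded tibiae, 6 of the other 8 members were lower under DEX: Kera, Aspn, Ogn, Bgn, Dcn and Omd. Among 19780 genes tested, 21.3% were called and 8.35% were called lower. The 7 tested members had a median difference of -0.97 against 0.0040 for all genes tested. Values not overlapping between the groups, with DEX lower, were found for 5 of the 7 tested members and for 8.86% of all genes tested. In unloaded tibiae the same held for 4 of the 7, against 6.4% of all genes. Fmod and Lum did not overlap in either setting, but they were chosen for their fall and are not set against these shares.

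Kera had the largest tested fall in loaded tibiae. It had 24.3, 9.08, 8.13, 16.3 and 8.11 CPM in Vehicle_Load and 4.29, 2.94, 3.21, 2.52 and 1.08 CPM in DEX_Load. The lowest vehicle library was above the highest DEX library, and the log2 difference was -2.20 (SE 0.390, edgeR adjusted p = 0.00419), or 4.59-fold lower. These values rest on 65 to 267 counts in Vehicle_Load and 10 to 32 counts in DEX_Load libraries.

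Aspn had 219, 132, 141, 116 and 116 CPM in Vehicle_Load and 71.3, 35.2, 41.7, 32.0 and 13.9 CPM in DEX_Load, a difference of -1.86 (SE 0.332, edgeR adjusted p = 0.0043). The groups did not overlap, and the level was 3.64-fold lower. Dcn ran from 469 to 661 CPM in Vehicle_Load and from 135 to 453 CPM in DEX_Load, with a difference of -1.04 (SE 0.298, edgeR adjusted p = 0.0287). Bgn ran from 1063 to 1542 CPM and from 355 to 1025 CPM, with a difference of -0.97 (SE 0.263, edgeR adjusted p = 0.0227). The members of the first class thus fell by 1.96-fold (Bgn), 2.05-fold (Dcn) and 3.64-fold (Aspn).

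Ogn ran from 61.6 to 107 CPM in Vehicle_Load and from 25.9 to 61.1 CPM in DEX_Load, with a difference of -0.91 (SE 0.211, edgeR adjusted p = 0.0136). Omd had 29.5, 33.7, 36.0, 45.0 and 32.1 CPM in Vehicle_Load and 35.4, 17.4, 17.2, 10.1 and 9.68 CPM in DEX_Load, a difference of -0.94 (SE 0.293, edgeR adjusted p = 0.0390). The Omd groups overlapped through DEX_Load 1, and the call was kept in 9 of 18 alternative fits, over which the adjusted p ran from 0.00361 to 0.312. That of Dcn was kept in 12 of 18, with an adjusted p of 0.0035 to 0.615. Prelp ran from 86.4 to 167 CPM and from 47.8 to 125 CPM, and its difference of -0.56 (95% interval -1.11 to -0.02, edgeR adjusted p = 0.125) did not pass the test over all genes. In 18 alternative fits the adjusted p of Prelp ran from 0.0252 to 0.86, and 2 of them called it lower. Epyc had 3 to 38 counts in Vehicle_Load and 3 to 6 counts in DEX_Load libraries and was not tested.

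DEX_Load 1 was the highest of its group and DEX_Load 5 the lowest for all 9 members other than Epyc. Without DEX_Load 3 the count of calls dropped from 6 to 3 (Kera, Aspn and Ogn), with 3575 genes called in all against 4206, and without DEX_Load 4 it was 5, with Omd lost and 3018 genes called in all. With the summed receptor reads as a covariate 0 of the 7 tested members were called by edgeR and 25 genes in all. The fitted differences were then -2.34 for Kera, -2.05 for Aspn, -1.33 for Omd, -1.16 for Bgn, -0.95 for Ogn and -0.79 for Dcn, and -1.27 and -2.05 for Fmod and Lum.

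**Figure D3:**
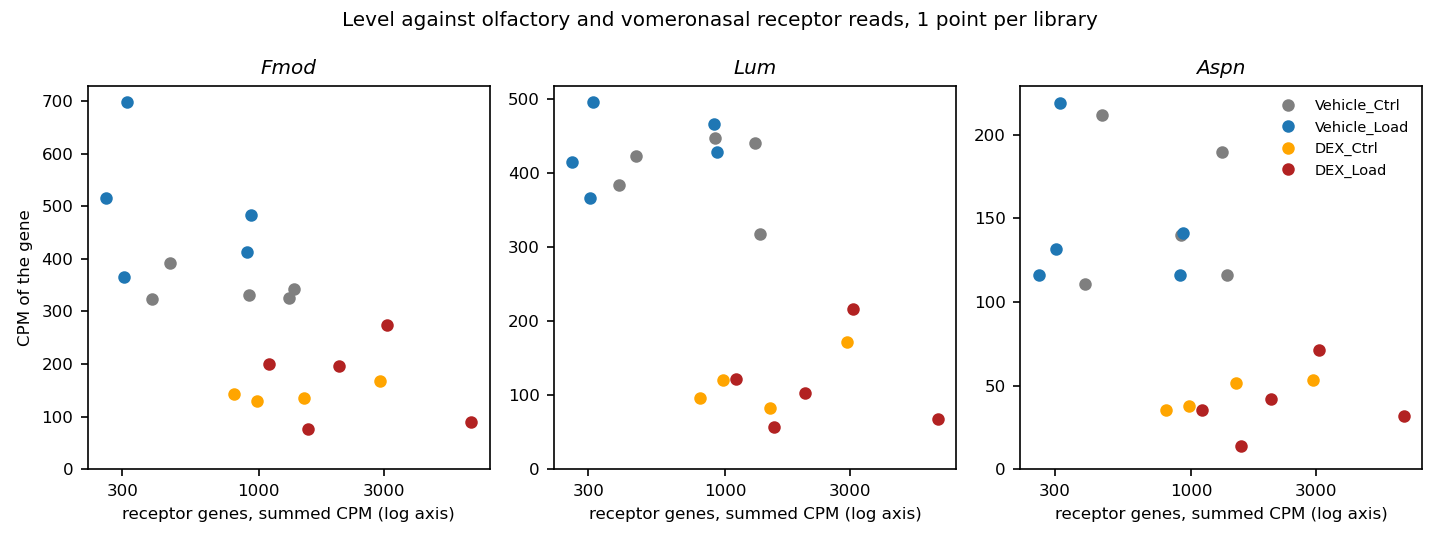
Each panel gives the CPM of Fmod, Lum or Aspn on a linear axis against the summed CPM of 1965 olfactory and vomeronasal receptor genes on a log axis, with 1 point for each of 19 libraries. DEX_Ctrl and Vehicle_Ctrl points share part of the receptor range, and the DEX points lie lower in each panel; DEX_Load and Vehicle_Load points share none of it.

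Loading of the tibia in vehicle-treated mice asked which members answer to mechanical stimulation. No member passed the edgeR test among the 9 tested, and 0.0% of 17982 genes did, whereas 3 members and 1773 genes had an unadjusted p under 0.05. Epyc did not pass the filter on low counts. The 3 members with this unadjusted p were Omd, Kera and Fmod. The DESeq2 Wald test called 2 of them, Omd and Kera, among 141 genes.

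Omd was lower in all loaded libraries (29.5, 33.7, 36.0, 45.0 and 32.1 CPM) than in all unloaded libraries (61.1, 81.3, 46.4, 71.7 and 62.8 CPM), although the nearest values, 45.0 and 46.4 CPM, were close. The loading difference of Omd was -0.91 on the log2 scale (SE 0.172, edgeR adjusted p = 0.170), with an adjusted p of 0.00118 by DESeq2 and of 0.00118 to 0.445 over the alternatives. Omd was the 1 member of 9 without overlap, as were 1.34% of all genes tested. Kera was higher with loading, with 4.64, 3.61, 8.17, 5.28 and 1.98 CPM in Vehicle_Ctrl and the Vehicle_Load values given above. Its highest unloaded value, 8.17 CPM, passed the lowest loaded ones, 8.11 and 8.13 CPM. The difference of Kera was 1.45 (SE 0.394, edgeR adjusted p = 0.307), with 0.0357 by DESeq2 and 0.0357 to 0.599 over the alternatives.

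Fmod had a loading difference of 0.50 (SE 0.158, edgeR adjusted p = 0.384) in vehicle-treated mice, a 1.41-fold higher fitted level, with the highest value in Vehicle_Load 1. That library had the highest level of 6 of the 9 members and the lowest of Omd. Lum (0.08, SE 0.133), Prelp (0.07, SE 0.160), Ogn (0.18, SE 0.157) and Aspn (-0.12, SE 0.223) had fitted differences from -0.12 to 0.18. Dcn (-0.28, SE 0.136) and Bgn (-0.44, SE 0.246) were lower in the fit, and neither passed. Without Vehicle_Ctrl 2, the library highest in Bgn, the difference of Bgn was -0.124. Over the same groups the summed level of the 7 osteoblast markers ran from 2744 to 4925 CPM without and from 2224 to 3708 CPM with loading, and that of the 5 tendon markers from 337 to 827 CPM and from 485 to 1267 CPM. The 9 tested chondrocyte markers had a median loading difference of 2.24 and the 8 muscle markers one of -1.09, with 8 of 8 negative, although none passed the test. In the interaction the medians of the 10 tested chondrocyte markers and of the muscle markers were -2.94 and 2.29, again with 0 calls. The first median includes Matn3 (-3.23) and Cnmd (-4.77), which did not pass the filter for loading in DEX. Nothing is read from these 2 genes. The part of these markers in the results for the members was not tested.

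In DEX-treated mice loading gave 0 calls among 9 members with edgeR and with DESeq2, and no member had an unadjusted p under 0.05. The share of all 22541 genes called was 0.0%, with 958 genes at an unadjusted p under 0.05, and 1.25% of genes did not overlap between the groups. Of the members only Epyc did not overlap, with 0 to 2.59 counts in DEX_Ctrl and 3 to 6 in DEX_Load libraries. It was not tested, and nothing is read from these counts. The fitted differences ran from -0.62 (Omd, SE 0.375) to 0.68 (Kera, SE 0.484). Between them lay Prelp (-0.38), Dcn (-0.26), Bgn (-0.25), Aspn (-0.24) and Ogn (0.12). Omd and Kera thus had the lowest and the highest loading difference under DEX as under vehicle, as fitted values without a call. With single libraries left out, the difference under DEX ran from -0.997 to -0.264 for Omd and from -0.532 to -0.228 for Prelp. These ranges overlap, so the rank of Omd is not firm. Fmod had 0.19 (95% interval -0.51 to 0.90) and Lum -0.07 (95% interval -0.80 to 0.66).

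Whether loading acted differently under DEX was tested as the interaction of treatment and loading in all 19 libraries. None of the 10 members passed with edgeR or DESeq2, none had an unadjusted p under 0.05, and 0.0% of 23653 genes were called (2859 at an unadjusted p under 0.05; DESeq2 called 50 genes). The largest fitted differences of response were those of Kera (-0.77, 95% interval -2.07 to 0.52) and Prelp (-0.47, 95% interval -1.11 to 0.18). The fitted interaction was 0.17 for Bgn (SE 0.422), 0.0048 for Dcn (SE 0.376), -0.08 for Ogn (SE 0.293) and -0.13 for Aspn (SE 0.428). The intervals of Fmod (-1.11 to 0.47), Lum (-0.97 to 0.64) and Omd (-0.63 to 1.17) each included changes of response larger than the loading difference of the same gene in vehicle-treated mice, so the design could not settle them. Epyc passed the filter here only through the vehicle libraries: it had 78 counts over Vehicle_Load, 38 of them in 1 library, and 28.36 over Vehicle_Ctrl, against 6.59 over DEX_Ctrl and 21.13 over DEX_Load. Its interval ran from -3.49 to 3.19, so nothing is read from it.

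Ratios of CPM within a library were taken for pairs of the same cluster and for Fmod with Lum and Dcn with Bgn, which lie on different chromosomes. They compare groups and not genes, and carry no test. Fmod and Lum were chosen for their fall under DEX, so a lower ratio of either under DEX follows in part from that choice and supports nothing. The ratio of Fmod to Prelp, neighbours on chromosome 1, was 2.81 ± 0.242 (SD, n = 5) in Vehicle_Ctrl, 3.80 ± 0.457 in Vehicle_Load, 1.31 ± 0.196 (n = 4) in DEX_Ctrl and 1.85 ± 0.299 (n = 5) in DEX_Load. The ratio of Lum to Dcn on chromosome 10 was 0.595 ± 0.0497, 0.765 ± 0.0870, 0.364 ± 0.0821 and 0.419 ± 0.0577 in the same order of groups. The ratio of Fmod to Lum was 0.867 ± 0.143, 1.13 ± 0.205, 1.29 ± 0.313 and 1.5 ± 0.274, with overlapping ranges between DEX and vehicle libraries. That of Kera to Lum, from low counts of Kera, was 0.0118 ± 0.00552, 0.0295 ± 0.0127, 0.0168 ± 0.0114 and 0.0262 ± 0.00772, also with overlapping ranges.

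On chromosome 13, the ratio of Aspn to Ogn was 2.28 ± 0.365 in Vehicle_Ctrl and 1.87 ± 0.135 in Vehicle_Load, against 1.25 ± 0.178 in DEX_Ctrl and 0.919 ± 0.235 in DEX_Load, without overlap between treatments. The ratio of Omd to Ogn separated less clearly. It was 1.00 ± 0.263 and 0.735 ± 0.232 in the unloaded groups and 0.485 ± 0.162 and 0.426 ± 0.105 in the loaded groups, with overlapping ranges. The ratio of Dcn to Bgn, which encode the closest relatives of the family, was 0.425 ± 0.157, 0.424 ± 0.0523, 0.440 ± 0.101 and 0.412 ± 0.135 in the 4 groups, less apart than the spread within any of them.

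Within groups the members varied together. After the mean of each group was subtracted from log2 CPM, Pearson's r over 19 libraries ran from 0.41 to 0.91 among the 28 pairs of the 8 members with a mean of at least 10 CPM, with a median of 0.67. The libraries share depth and tissue makeup, and r is given as a description. The closest pairs were Fmod with Prelp (0.91), Ogn with Aspn (0.91) and Lum with Dcn (0.89), in each case genes of the same cluster. Other pairs of a cluster were less alike, Omd with Ogn (0.56) and Omd with Aspn (0.49), and Lum with Omd (0.88) are on different chromosomes. The lowest was Fmod with Bgn (0.41). Without DEX_Load 4 the range was 0.47 to 0.91 and the median 0.70.

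Among 10343 genes, the non-members most like Fmod by this measure were Prrx1 (r = 0.926), a homeobox gene of limb and periosteal mesenchyme, Timp2 (0.918), an inhibitor of matrix metalloproteinases, and Tnn (0.911), a tenascin of the periosteum. Those most like Lum were Myo6 (0.919), Hmgn1 (0.878) and Zfhx4 (0.878).

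**Figure D4:**
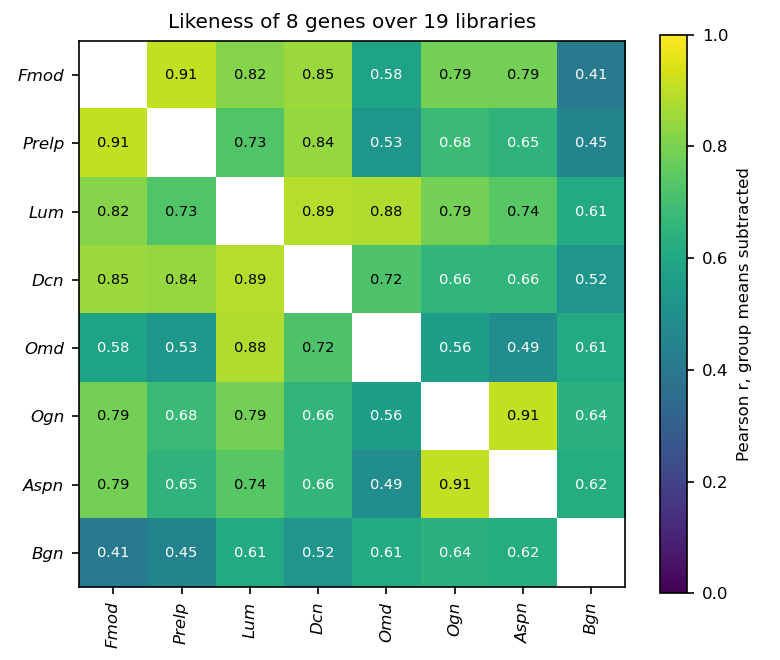
Cells give Pearson's r of log2 CPM over 19 libraries for each pair of 8 genes after the group means were subtracted, on a colour scale from 0 to 1. Fmod with Prelp and Ogn with Aspn have the highest value, 0.91, and the row of Bgn holds the lowest, 0.41.

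Genes that bind or process SLRPs fell under DEX. Of 18 binding partners and processing genes, 14 fell and 0 rose in loaded tibiae, and 11 fell and 0 rose in unloaded tibiae, with median differences of -1.98 and -1.14 (all genes tested: 0.0040 and 0.0334, with 8.35% and 3.99% called lower). With the receptor reads as a covariate, 0 of the 18 were called in loaded tibiae by edgeR (25 genes in all, median -1.50 for the list) and 5 in unloaded tibiae. The largest falls were those of the fibril collagens: Col1a1 (-2.91, SE 0.484, edgeR adjusted p = 0.00303), Col1a2 (-2.73, SE 0.452, adjusted p = 0.0030) and Col3a1 (-2.66, SE 0.385, adjusted p = 0.00156) in loaded tibiae. In unloaded tibiae the same 3 genes had -2.14, -1.92 and -1.86. The summed level of the 18 genes ran from 44178 to 152165 CPM in Vehicle_Ctrl, 77401 to 120510 CPM in Vehicle_Load, 8403 to 37039 CPM in DEX_Ctrl and 6165 to 26507 CPM in DEX_Load.

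The same shares of all genes, 8.35% lower in loaded and 3.99% in unloaded tibiae, are the background of the enzymes that build the sugar chains. Of 21 chondroitin and dermatan sulfate enzymes, 7 fell and 0 rose under DEX in loaded tibiae, with a median of -0.48, led by Chst3 (-1.50, SE 0.282), Chpf (-1.09, SE 0.196) and Chsy1 (-0.98, SE 0.193). In unloaded tibiae 1 fell, Ust (-0.69, SE 0.153), a uronyl sulfotransferase, with a median of -0.13. Of 9 genes for keratan sulfate chains and tyrosine sulfation, 1 fell in either setting, the tyrosine sulfotransferase gene Tpst1 (-0.99, SE 0.147 in loaded and -0.64, SE 0.159 in unloaded tibiae), a count near those shares. With the covariate, 0 genes of either enzyme list were called in loaded tibiae, and in unloaded tibiae 1 of each fell (Ust and Tpst1) while 2 of the first and 1 of the second rose.

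Of 6 further family genes, Podnl1 (-0.83, SE 0.250) and Tsku (-0.64, SE 0.155) fell under DEX in loaded tibiae, whereas none of 5 tested passed in unloaded tibiae with edgeR. Optc was also called in loaded tibiae, as higher, but it passed the filter on low counts only in comparisons that include DEX_Load, the group with the most receptor reads, so no rise is read from it. With the covariate 0 of the 6 were called in loaded tibiae, with a median of -0.15. No gene of these 4 lists passed the edgeR test for loading under either treatment or for the interaction.

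Markers of the cells that make SLRPs moved in the same comparisons, and their part in the results was not tested. In loaded tibiae under DEX, 6 of 7 osteoblast, 3 of 5 tendon and ligament, 4 of 7 periosteal and 3 of 5 osteocyte markers fell, while 1 periosteal marker (Pi16) rose. All 8 chondrocyte markers that were also tested for loading in DEX fell. Cnmd and Matn3 were also called lower, but neither passed the filter for loading in DEX, so no fall is read from them. The osteocyte marker Fgf23 was called higher, but it passed the filter only in comparisons that include DEX_Load, so no rise is read from it. Of all genes tested, 8.35% were called lower and 12.9% higher in loaded tibiae, and 3.99% lower and 2.86% higher in unloaded tibiae. In unloaded tibiae 3 of 7 osteoblast, 0 of 9 tested chondrocyte, 2 of 5 tendon, 2 of 7 periosteal and 2 of 4 tested osteocyte markers fell, and Pi16 rose. Neutrophil markers rose, 6 of 7 in loaded and 5 of 7 in unloaded tibiae. Of 8 skeletal muscle markers 1 rose in loaded tibiae. In unloaded tibiae none passed the test, but all 8 had negative differences, with a median of -1.75. Of 6 erythroid markers 0 passed in either. With the receptor reads as a covariate, 0 markers of any of these lists were called in loaded tibiae, while in unloaded tibiae, in a fit that called 2740 genes, 5 osteoblast, 2 tendon, 3 periosteal, 2 osteocyte and 1 erythroid markers fell and 5 neutrophil markers and 1 periosteal marker rose.

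The summed level of the osteoblast markers ran from 2744 to 4925 CPM in Vehicle_Ctrl, 2224 to 3708 CPM in Vehicle_Load, 909 to 2316 CPM in DEX_Ctrl and 824 to 1612 CPM in DEX_Load. The periosteal markers summed to 781 to 2520, 1206 to 2530, 419 to 531 and 343 to 672 CPM in the same order. The tendon markers summed to 337 to 827, 485 to 1267, 253 to 411 and 197 to 564 CPM. The chondrocyte markers summed to 792 to 3696, 1507 to 3320, 220 to 1120 and 155 to 711 CPM. The neutrophil markers summed to 4836 to 7016, 4155 to 6124, 8574 to 15672 and 6857 to 16497 CPM. The muscle markers summed to 8395 to 37313, 4060 to 19906, 2462 to 17781 and 7752 to 22561 CPM, with medians of 29509, 10478, 4038 and 16660 CPM.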

How the data were processed

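RNA was sequenced from pulverised tibiae with a stranded total RNA kit. The authors deposited 1 table of expected counts, with 54446 genes and 20 libraries. Per the labels and methods, reads were aligned with STAR 2.7.10a to GRCm38 and counted with RSEM 1.2.28, whose estimates split reads among similar genes, so copies with shared sequence are less certain. The strand setting is not given in the sources used here.

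Expected counts were rounded to whole numbers. Each comparison kept its own groups, filtered low genes with filterByExpr, and was fitted with the quasi-likelihood F test of edgeR 4.0.16 (R 4.3.3, TMM normalization), with Benjamini-Hochberg adjustment over all genes tested and a threshold of 0.05. The interaction used all 19 libraries. Levels are CPM with TMM over all 20 libraries. DEX_Ctrl 4 was left out, after the study, and the study itself used DESeq2, run here (1.42.0) as an alternative. The scripts were tested on simulated data. The rule for named genes was to name all 10 members in every comparison (Epyc was tested only in the interaction) and, from each fixed list, at most the 3 called genes with the largest changes, and for Fmod and Lum the 3 other genes with the highest r. Outside this rule, Matn3 and Cnmd were named for their low counts and Pi16 for its rise in loaded tibiae. The members and the lists were chosen with earlier results of these data known. Library totals ran from 4641437 to 13032018, Kera and Epyc had low counts, and intervals of fits cover the spread between libraries.

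Alternatives were DESeq2, its size factors, no filter, a filter of 10 counts in every library, all 4 groups in 1 model, a replicate block, the receptor reads as a covariate, all 20 libraries, DEX_Load 4 left out in place of DEX_Ctrl 4, and each library left out. The libraries of the blocked fit with no block were added after seeing the data.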

Additional observations from a re-analysis of the deposited data

Results flagged for a closer look

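Library values that stood apart from the other libraries of their group by Dixon's criterion were found in 4 of 40 combinations of a gene and a group, and chance gives about 1 in 20. In Vehicle_Ctrl, Fmod was high in replicate 4 (392 CPM, next 342 CPM), Dcn was low in replicate 1 (516 CPM, next 685 CPM) and Bgn was high in replicate 2 (3070 CPM, next 1657 CPM). In Vehicle_Load, Aspn was high in replicate 1 (219 CPM, next 141 CPM). Without Vehicle_Ctrl 2 the Bgn difference was -0.124 for loading in vehicle-treated mice and -0.88 for DEX in unloaded tibiae, where the call was lost. That call was also lost without Vehicle_Ctrl 1 (edgeR adjusted p = 0.0728) and without Vehicle_Ctrl 4 (0.0799), in which Bgn did not stand apart. Without Vehicle_Ctrl 4 the Fmod difference was 0.551 for loading, without Vehicle_Ctrl 1 that of Dcn was -0.352, and without Vehicle_Load 1 that of Aspn was -0.305.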

How the results depend on the processing

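Of 854 alternative fits of single members with a test, 753 kept the direction and the side of the threshold, 46 lost a call, 9 gained one and 46 changed sign, 0 of the last in the DEX comparisons. The 72 DEX fits of Fmod and Lum carry no test, and all were negative. For loading in vehicle-treated mice, DESeq2 called 2 members (Omd and Kera) and the fit with no filter 1 (Omd), against 0. For DEX in loaded tibiae the count of 6 became 0 with the receptor covariate, and 3 to 6 with single libraries left out (3 without DEX_Load 3). For DEX in unloaded tibiae the count of 5 ran from 1 (without DEX_Ctrl 3) to 6 (without the unnumbered Vehicle_Ctrl library). The cause was not tested.

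The sources do not say that a replicate number marks a mouse, and the data did not settle it: correlations of same-numbered deviations were 0.345 to 0.361 in 3 DEX pairs and 0.0229 in the other, 2 of the 4 best with their own number, and from -0.301 to 0.246 over 4 vehicle pairs, of which 0 were. The unnumbered vehicle libraries, whose columns share a number that no label gives, had 0.338 and were left out of this check and of the block. With the replicate block, 3 members were called in loaded and 2 in unloaded tibiae, and 0 in the other comparisons, among 2326 and 520 genes in all. The same libraries with no block gave 3 and 1, among 1120 and 566. In the DEX comparisons the block joined vehicle and DEX libraries of the same number, which came from different mice. There it was no pairing of tibiae of a mouse.

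The values that changed sign belong to log2 differences that passed no threshold in any of these fits. For loading in vehicle-treated mice, Prelp had -0.0613 with the replicate block and -0.0262 in those libraries with no block. For loading under DEX, Lum had 0.0823 with no block and 0.108 with DEX_Load 4 left out in place of DEX_Ctrl 4, and Ogn had -0.0106 with the covariate. For the interaction, leaving out DEX_Load 4 in place of DEX_Ctrl 4 gave Lum 0.0188, Ogn 0.0347 and Aspn 0.0364, the covariate gave Bgn -0.171 and Omd -0.0644, no filter gave Dcn -0.0449, and at least 10 counts gave Ogn 0.0463 and Aspn 0.00422. Ogn had 0.0082 with the replicate block and 0.0148 in those libraries with no block.

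With single libraries left out, loading in vehicle-treated mice ran from -0.0187 to 0.195 for Prelp and from -0.305 to 0.0219 for Aspn. Loading under DEX ran from -0.037 to 0.377 for Fmod, from -0.422 to 0.137 for Lum and from -0.0663 to 0.29 for Ogn. The interaction ran from -0.536 to 0.0524 for Lum, from -0.256 to 0.174 for Dcn, from -0.118 to 0.408 for Bgn, from -0.276 to 0.103 for Ogn, from -0.13 to 0.636 for Omd, from -0.454 to 0.0875 for Aspn and from -0.614 to 0.228 for Epyc. Kera and Epyc are limited by depth.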
